A study of Homo sapiens with 4 samples.

Results

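The genes of DNA replication and S phase were read in SAS cells, a human tongue squamous carcinoma line, after depletion of AEG-1. The set held 40 genes, chosen by name from 4 kinds of role: origin licensing, the replication fork, nucleotide supply, and the E2F and cyclin E genes that open S phase. Every probe whose accession mapped to 1 of these symbols was taken, which gave 49 probes, and all 49 stood clear of the background in red and in green on each of the 4 arrays. The 40 genes are part of 27953 gene or transcript names on the array, of which 23485 could be tested.

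RNA from SB cells, which stably carry a lentiviral pLKO.1 vector with LYRIC shRNA-B (LYRIC is another name of AEG-1, gene symbol MTDH), was labelled with Alexa 647. RNA from SCt cells, which carry the pLKO.1 vector by the labels and a scrambled shRNA by the study's methods, was labelled with Alexa 555. Puromycin at 2 μg/ml, applied over 14 days, selected both lines as stable clones, so 1 shRNA and its selected cells stand for the knockdown. Each labelling took 15 μg of RNA, and each of the 4 arrays compared both lines with the dyes in the same orientation. The labels call the arrays biological replicates, but separate cultures are not described, so p-values measure only the spread between these arrays, which may be technical. Because 0 arrays had swapped dyes, a dye effect and a difference between the lines cannot be told apart for a single probe.

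Before S phase, the origin recognition complex (ORC1 to ORC6) with CDC6 and CDT1 loads the ring of MCM2 to MCM7 onto DNA, a step called licensing. At the start of S phase CDC45 and the GINS proteins turn that ring into the active helicase, polymerases copy both strands, and the sliding clamp PCNA, loaded by the RFC complex, holds them on DNA. Many of these genes are transcribed by E2F factors as cells leave G1, which makes them common markers of proliferation in squamous carcinoma.

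The knockdown was present on every array. MTDH read −3.18, −3.01, −3.12 and −3.41 as log2 ratios of SB over SCt on arrays 1 to 4, a mean of −3.18 ± 0.17 (SD, n = 4), or 9.07-fold lower, with an adjusted p of 5.21e-10. Between 84.7% and 90.3% of spots in a channel were well above background and 0 were saturated. All 9 squamous epithelium markers looked at, KRT5, KRT14 and TP63 among them, were well above background in both channels. The probes of COL3A1 and PDGFRB, fibroblast genes, and 1 probe each of PTPRC, PECAM1 and DCN did not pass the filter on dim probes. The other blood, endothelial and fibroblast probes looked at were well above background, and 0 of them were called. The brightest probe of PTPRC, a blood gene, had a mean log2 intensity of 14.2, as had that of TP63. Signal above background therefore does not tell these cell types apart here. Values below are log2 ratios after loess normalization within each array, which removes the dependence of the ratio on the brightness of a probe, and a gene is read at its brightest probe.

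The stretches below show the start regions of 5 of the genes, 200 bases before the RefSeq start in GRCh38.p14, 5′ to 3′ on the gene's strand. They were picked as TK1, the gene that passed the test, PCNA, the clamp, MCM6 and MCM7, ring subunits with several E2F matches, and E2F1, the factor itself. Capitals mark a match to the E2F letters TTTCCCGC, TTTCGCGC, TTTGCCGC or TTTGGCGC, or to CCAAT, each searched on both strands. In MCM6 each TTTGGCGC overlaps a GCGCGAAA, and in MCM7 the last C belongs to a CCAAT that runs past the end of the stretch.
TK1, chr17:78187053-78187252, minus strand: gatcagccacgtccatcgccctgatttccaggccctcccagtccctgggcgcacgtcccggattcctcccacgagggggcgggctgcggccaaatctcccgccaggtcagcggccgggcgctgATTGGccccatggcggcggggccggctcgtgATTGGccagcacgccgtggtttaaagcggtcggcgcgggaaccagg
PCNA, chr20:5126623-5126822, minus strand: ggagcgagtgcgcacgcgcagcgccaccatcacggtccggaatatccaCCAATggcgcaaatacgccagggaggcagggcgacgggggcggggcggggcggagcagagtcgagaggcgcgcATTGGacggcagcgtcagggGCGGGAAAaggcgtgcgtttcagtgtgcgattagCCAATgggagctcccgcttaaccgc
MCM6, chr2:135876444-135876643, minus strand: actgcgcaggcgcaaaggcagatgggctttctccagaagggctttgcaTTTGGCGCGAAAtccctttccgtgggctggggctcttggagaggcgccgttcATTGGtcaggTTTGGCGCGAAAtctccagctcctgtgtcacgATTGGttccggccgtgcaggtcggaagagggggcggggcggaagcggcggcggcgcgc
MCM7, chr7:100101398-100101597, minus strand: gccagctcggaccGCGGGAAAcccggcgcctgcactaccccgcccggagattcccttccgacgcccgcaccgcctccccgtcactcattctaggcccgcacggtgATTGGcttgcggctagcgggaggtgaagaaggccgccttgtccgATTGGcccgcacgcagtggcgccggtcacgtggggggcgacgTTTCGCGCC
E2F1, chr20:33686386-33686585, minus strand: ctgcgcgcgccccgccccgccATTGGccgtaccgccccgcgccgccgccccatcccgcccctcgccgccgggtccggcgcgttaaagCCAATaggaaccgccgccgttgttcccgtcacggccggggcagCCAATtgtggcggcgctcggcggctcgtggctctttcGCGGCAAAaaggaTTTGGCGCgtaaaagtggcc
RefSeq start windows, 250 bases before to 50 after a start, were at hand for 36 of the 40 genes, not for MCM4, MCM5, GINS4 or CCNE2. The E2F letters lay in a window of 18 of the 36 (50%), against 3.99% of all 27305 genes with a window. CCAAT lay in 23 of the 36 (63.9%), against 39.7%. The windows of TK1 held 0 matches to the E2F letters and 2 to CCAAT. Only exact matches were counted, so 0 matches does not show that a gene lacks an E2F site. The 18 genes with the E2F letters had a median log2 ratio of −0.059, with 12 lower in SB cells, and the 18 without had a median of −0.042, with 15 lower.

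After loess, the mean log2 ratios of the replication genes ran from −0.27 to 0.13. A gene that did not pass the test is not thereby shown to be equal in both lines. Only TK1 passed the test, 1.20-fold lower, and 30 of the 40 genes had a mean below 0 and 10 above it. With an adjusted p under 0.05, 1 of 40 genes was called, against 3.51% of all genes tested (825 of 23485), of which 2.26% were called lower and 1.26% higher. The median of the 40 was −0.048, beside 0.013 over all genes, and 44.6% of all genes had a mean below 0. Without the adjustment 8 genes were lower and 1 higher at p under 0.05, beside 8.98% and 9.16% of all genes. The same sign on all 4 arrays was seen for 12 lower and 3 higher genes, beside 12.2% and 13.9% of all genes. The 95% intervals of the 40 genes ran together from −0.39 to 0.33. The median absolute log2 ratio was 0.067, beside 0.065 over all genes, and the SD between arrays of a gene had a median of 0.12.

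**Figure D1:**
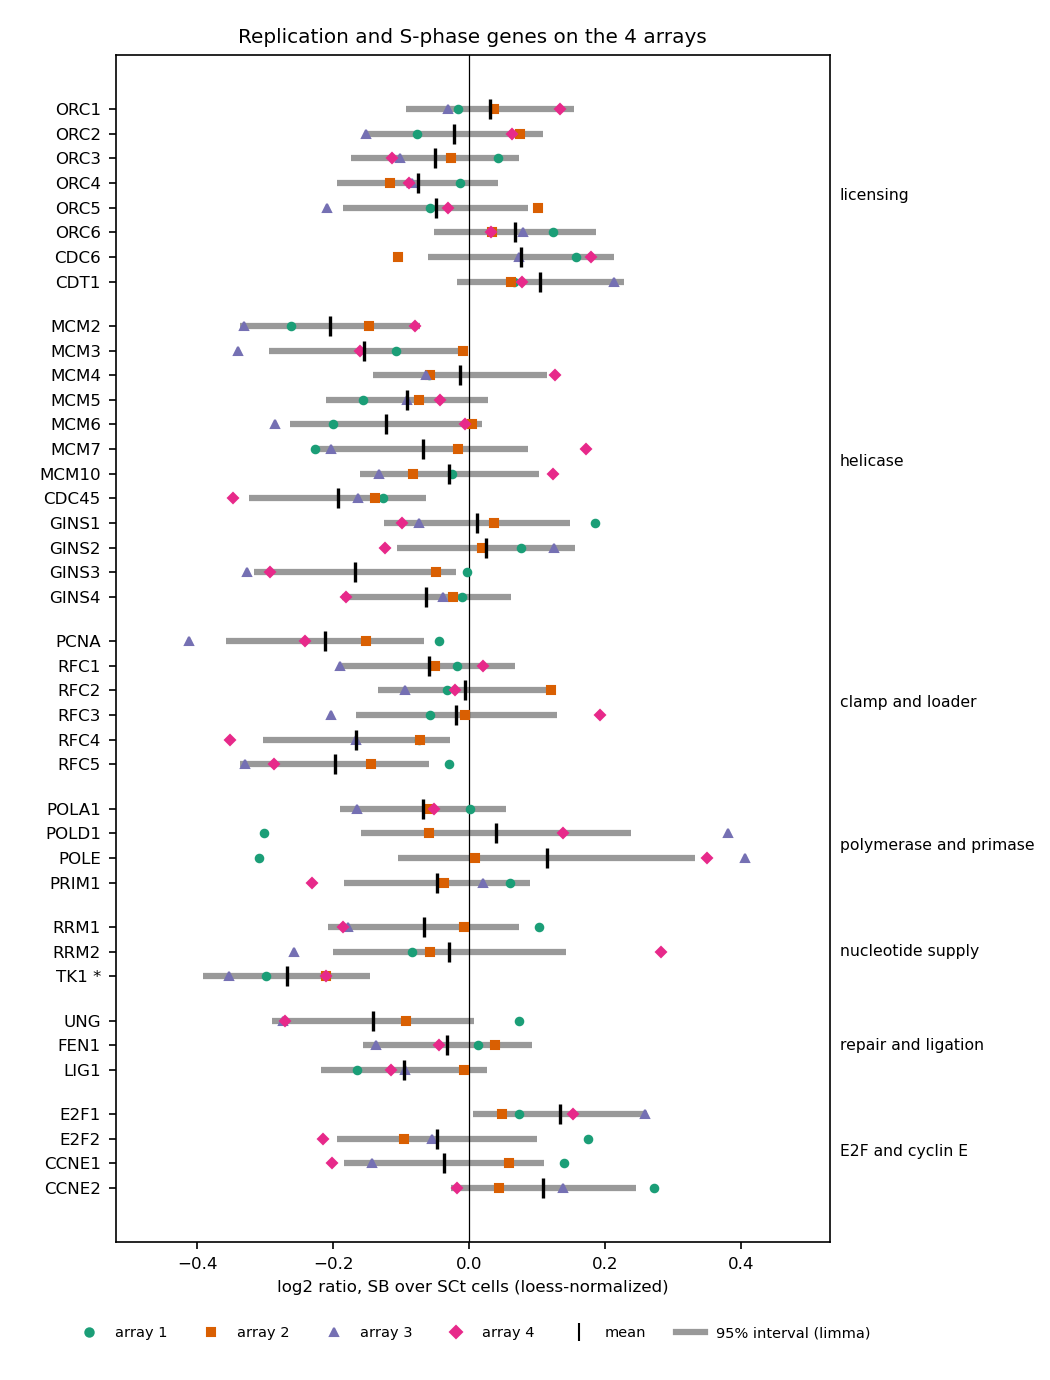
Log2 ratio of SB over SCt cells for each of the 40 genes (horizontal axis, loess-normalized), grouped by role. Coloured points are the 4 arrays, black ticks their mean and grey bars the 95% interval from limma. TK1, marked with an asterisk, is the gene with an adjusted p under 0.05, and the points of POLE and POLD1 spread most, from below −0.30 on array 1 to above 0.37 on array 3.

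Among the 3 genes of nucleotide supply, TK1, the thymidine kinase of the salvage pathway whose mRNA is abundant in S phase, read −0.30, −0.21, −0.35 and −0.21 on the 4 arrays. All 4 arrays lay below 0, with a mean of −0.27 ± 0.07 (SD, n = 4), a 95% interval from −0.39 to −0.15 and an adjusted p of 0.0227. It was read by a single probe with 1 spot per array, and 1.96% of all genes had a lower mean. The scanned intensities of that probe, before normalization, were 24471 to 34148 in the SB channel and 16701 to 24656 in the SCt channel, so the red signal was the brighter on every array. The median spot was also brighter in red, 655 to 875 against 362 to 588.5, and the ratio below 0 is relative to probes of like brightness. With array 1, 2 or 3 left out TK1 read −0.26, −0.29 and −0.24 and did not pass (adjusted p = 0.0803, 0.0851 and 0.139). It also missed the threshold with the scanner software's ratios (adjusted p = 0.0511) and with the background corrected without an offset (adjusted p = 0.0506). RRM1, the large subunit of ribonucleotide reductase, which makes deoxynucleotides, read −0.067 ± 0.14 (SD, n = 4), with array 1 above 0 and the others below. RRM2, its small subunit, read −0.029 ± 0.23 (SD, n = 4), with array 4 at 0.28 and the others between −0.26 and −0.057.

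The helicase genes numbered 12, of which 10 had a mean below 0, beside 44.6% of all genes. Of the 12, 0 were called, and their median was −0.080. All 6 subunits of the MCM2 to MCM7 ring had means below 0, from −0.20 for MCM2 to −0.013 for MCM4. MCM2 read −0.26, −0.15, −0.33 and −0.080 on the 4 arrays, a mean of −0.20 ± 0.11 (SD, n = 4) with an adjusted p of 0.0898. All 4 arrays of MCM2 lay below 0, and with array 4 left out it read −0.25 with an adjusted p of 0.0258. The ring's median was −0.18, −0.037, −0.24 and −0.025 on arrays 1 to 4, so arrays 1 and 3 were low and arrays 2 and 4 close to 0.

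CDC45, which joins the ring to form the active helicase, read −0.13, −0.14, −0.16 and −0.35, a mean of −0.19 ± 0.10 (SD, n = 4) with an adjusted p of 0.101. Here array 4 was the lowest, whereas in MCM2 it was the nearest to 0. GINS3, 1 of the 4 GINS subunits, read −0.17 ± 0.17 (SD, n = 4, adjusted p = 0.208), near 0 on arrays 1 and 2 and at −0.33 and −0.29 on arrays 3 and 4. GINS1 and GINS2 had means of 0.012 and 0.024, and GINS4 one of −0.063. MCM10, which helps the helicase to start, read −0.029 ± 0.11 (SD, n = 4).

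The clamp and its loader gave 6 genes, all 6 with a mean below 0, beside 44.6% of all genes. Of the 6, 0 were called, and their median was −0.11. PCNA, the sliding clamp, read −0.044, −0.15, −0.41 and −0.24 at its brightest probe, a mean of −0.21 ± 0.16 (SD, n = 4) with an adjusted p of 0.107. A second PCNA probe, spotted 10 times on each array, read −0.089, −0.19, −0.26 and −0.24, a mean of −0.19 ± 0.076 (SD, n = 4) with an adjusted p of 0.0855. Both probes put array 1 nearest to 0 and array 3 lowest, and the SD between the 10 spots of an array was 0.030 to 0.047. The 95% interval of the second probe was −0.32 to −0.071. RFC5 and RFC4, small subunits of the loader, read −0.20 and −0.17 (adjusted p = 0.116 and 0.178), both below 0 on all 4 arrays. RFC1, RFC2 and RFC3 lay between −0.059 and −0.0065.

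Licensing genes split evenly, with 4 of 8 below 0, 4 above, 0 called and a median of 0.0042. CDT1, which brings the MCM ring to origins, had the mean farthest from 0 of the 8 and read 0.066, 0.061, 0.21 and 0.078. All 4 arrays of CDT1 lay above 0, with a mean of 0.10 ± 0.073 (SD, n = 4) and an adjusted p of 0.349. CDC6, its partner in loading, read 0.077 ± 0.13 (SD, n = 4), with array 2 at −0.10 and the others above 0. The 6 ORC genes had means from −0.076 for ORC4 to 0.067 for ORC6.

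The 4 genes of polymerases and primase gave 2 means below 0 and 2 above, with 0 called. POLE, the catalytic subunit of the leading strand polymerase, read −0.31, 0.0085, 0.41 and 0.35, a mean of 0.11 ± 0.33 (SD, n = 4) that is smaller than its own spread. Its second probe read −0.15, 0.040, −0.10 and 0.00084, a mean of −0.052 ± 0.087 (SD, n = 4), so the probes of POLE differed in sign. POLD1, the catalytic subunit of polymerase delta, spread likewise, with −0.30, −0.059, 0.38 and 0.14 and a mean of 0.040 ± 0.29 (SD, n = 4). POLA1 and PRIM1, of the complex that lays down primers, read −0.068 and −0.047.

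UNG, FEN1 and LIG1, which remove uracil, trim flaps and seal nicks behind the fork, all had means below 0, of −0.14, −0.032 and −0.095. UNG read 0.073, −0.093, −0.27 and −0.27 on the 4 arrays (adjusted p = 0.295), with array 1 above 0 and arrays 3 and 4 low.

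Of the regulators, E2F1, the activator of many S-phase promoters, was the member with the highest mean. It read 0.073, 0.048, 0.26 and 0.15 at a probe spotted 10 times per array, a mean of 0.13 ± 0.095 (SD, n = 4) with a 95% interval from 0.0057 to 0.26. All 4 arrays of E2F1 lay above 0, and the adjusted p was 0.244. With spots that the software marked as outliers kept, the mean was 0.26 (adjusted p = 0.110). E2F2 read −0.047 ± 0.16 (SD, n = 4). CCNE1 and CCNE2, the cyclins E that activate CDK2 at the entry to S phase, read −0.036 and 0.11, and in both array 1 was the highest and array 4 the lowest.

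Second probes were at hand for 9 genes. The probe pair had the same sign in 6 of them (CCNE2, MCM5, MCM7, ORC4, PCNA and RFC3) and opposite signs in 3 (ORC2, ORC5 and POLE), and the pair differed by 0.015 to 0.17. MCM7 read −0.068 at the brightest and −0.14 at the second probe. No second probe had an adjusted p under 0.05 in limma, and 3 had an unadjusted p under 0.05: those of ORC2, MCM7 and PCNA. Over all kept probes 5333 of 28507 had an unadjusted p under 0.05.

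The size of the shift differed between arrays. The median of the 40 genes was −0.022, −0.026, −0.13 and −0.048 on arrays 1 to 4, beside 0.0028, 0.0056, 0.025 and 0.0089 over all genes. Below the array's median of all genes lay 26, 27, 32 and 26 of the 40. Array 3 held the lowest of the 4 values for 19 of the 40 genes, against 24.7% of all genes, and array 1 the highest for 16, against 24.5%. The SD of the 40 values within an array was 0.14, 0.075, 0.19 and 0.18, and over all genes it was 0.17, 0.14, 0.20 and 0.19, so array 2 was the narrowest in both. Over the 40 genes, Pearson's r between the values of 2 arrays ran from −0.19 to 0.49, a description over genes that share arrays and are not independent. With array 3 left out the median of the 40 means was −0.027, with 24 genes lower and 16 higher.

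The sign of the median depended on how the arrays were scaled. Where each array was centred on its median in place of loess, the 40 genes had medians of 0.16, 0.11, −0.0058 and 0.068 on arrays 1 to 4, and 37 of the 40 had a mean above 0. Their median over arrays was then 0.082, beside 0.071 over all genes. Minus the array's median of all genes, the 40 stood at 0.087, 0.056, −0.082 and 0.010 after centring and at −0.024, −0.031, −0.16 and −0.056 after loess. Arrays 1, 2 and 4 changed sign between the scalings, and array 3 was below 0 in both. With the scanner software's own ratios, which are also corrected for dye, the medians of the 40 were −0.023, −0.026, −0.11 and −0.045.

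**Figure D2:**
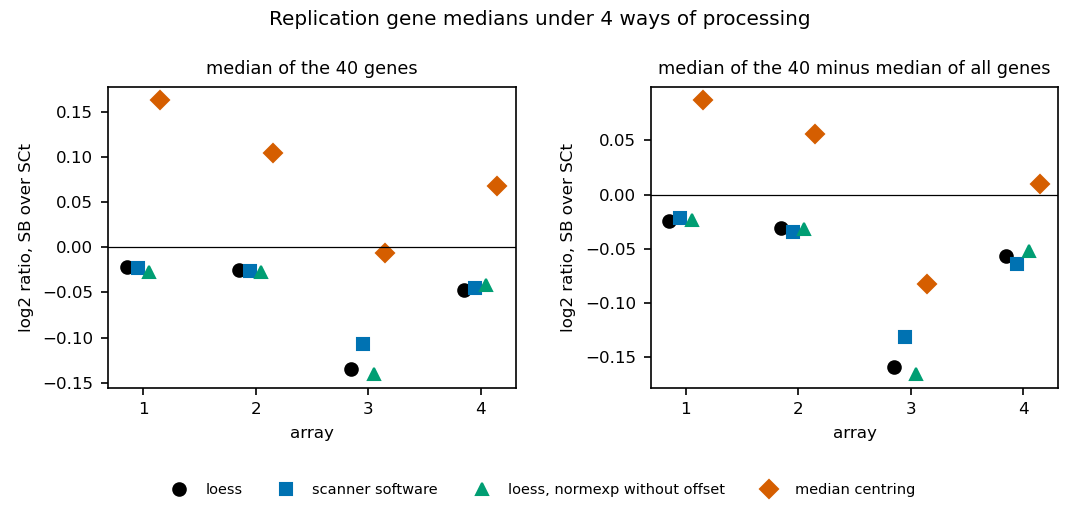
Median log2 ratio of SB over SCt for the 40 replication genes on each array (left) and the same minus the median of all genes tested (right), under 4 ways of processing. Black circles (loess), blue squares (scanner software) and green triangles (loess after background correction without an offset) lie below 0 on every array. Orange diamonds (median centring) lie above 0 on arrays 1, 2 and 4 on the right.

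After median centring 7 of the 40 genes were called, all higher: CDT1 (0.22), MCM4 (0.25), MCM7 (0.24), POLD1 (0.28), POLE (0.27), E2F1 (0.26) and CCNE2 (0.19). That scaling called 31.9% of all genes, 11.2% lower and 20.8% higher, so 2625 lower and 4876 higher calls stand beside 530 and 295 after loess. TK1 was then at 0.0095 with an adjusted p of 0.915, and MCM2 and PCNA were at 0.073 and 0.064. CDT1, POLD1, POLE, E2F1 and CCNE2 had means above 0 under both scalings, while MCM4 and MCM7 changed sign.

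The replication genes are bright on this array, with a median log2 intensity of 11.9 against 10.0 over all genes. After median centring the log2 ratio increased with log2 intensity over all genes (r = 0.72), and over the 40 genes r was 0.30. After loess r was −0.0031 over all genes and −0.47 over the 40, where TK1, PCNA and MCM2 were both bright and low. These correlations are across genes read on the same arrays, as a description. The part of brightness in the shift of the 40 genes was not tested.

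**Figure D3:**
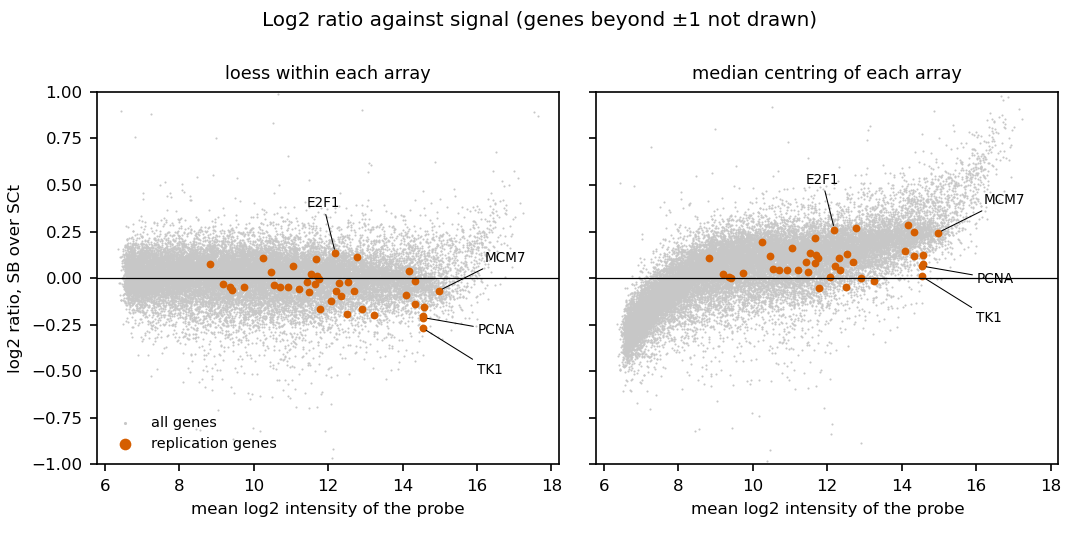
Log2 ratio of SB over SCt (mean of 4 arrays) against the mean log2 intensity of a gene's brightest probe, after loess (left) and after median centring (right). Grey points are all genes tested and orange points the 40 replication genes. The grey cloud is level after loess and climbs with intensity after median centring, and TK1 moves from −0.27 on the left to 0.0095 on the right.

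The wider pathway was read with 78 further genes of the replisome, origin firing, nucleotide supply, the E2F and pocket proteins, G1 cyclins and kinases, and chromatin assembly, all 78 of them tested. Of these 10 were called at their brightest probe (12.8%), all 10 lower in SB cells and 0 higher. Over all genes 3.51% were called, 2.26% lower and 1.26% higher. The list was chosen with earlier results of these data known. TOP1 read −0.16 at its brightest probe (adjusted p = 0.167) and was not counted, while its second probe read −0.32 (adjusted p = 0.0171). The median of the list was −0.054, with 52 of 78 genes below 0, beside 44.6% of all genes.

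For the start of replication, CDC7, the kinase that with DBF4 fires licensed origins, read −0.18, −0.34, −0.50 and −0.42 (mean −0.36, adjusted p = 0.0105). MTBP, a partner of TICRR in origin firing, read −0.31, −0.39, −0.25 and −0.48 (mean −0.36, adjusted p = 0.00705). Both were below 0 on all 4 arrays, although DBF4 and TICRR themselves, looked up after the values were seen, read 0.10 and −0.12 and were not called. MCM8, a relative of the ring subunits that acts in recombination, read −0.36, −0.34, −0.42 and −0.34 (mean −0.37 ± 0.036, SD, n = 4, adjusted p = 0.00356). MCM8 was the most even of the 10 across arrays, at 1.29-fold lower.

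Among the E2F and pocket proteins, E2F4, an E2F that mainly represses with pocket proteins, read −0.45, −0.25, −0.52 and −0.26 (mean −0.37, adjusted p = 0.0087). RB1, the retinoblastoma pocket protein, read −0.17, −0.32, −0.45 and −0.37 (mean −0.33, adjusted p = 0.0130). Both were below 0 on all 4 arrays, and the other 9 genes of that group were not called. TYMS, which makes thymidylate, read 0.020, −0.34, −0.50 and −0.49 (mean −0.33 ± 0.24, SD, n = 4, adjusted p = 0.0496). TYMS thus crossed 0 on array 1, and of the other 7 nucleotide supply genes of the list 0 were called.

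In chromatin assembly all 7 genes had a mean below 0 and 2 were called, beside 44.6% of all genes below 0 and 3.51% called. Not all of the 7 stayed below 0 after median centring. UHRF1, which brings DNA methylation to newly made strands, read −0.28, −0.13, −0.57 and −0.23 (mean −0.30, adjusted p = 0.0398), while its second probe read −0.16 ± 0.25 (SD, n = 4) with an adjusted p of 0.339. ASF1A, a chaperone of histones, read −0.078, −0.33, −0.51 and −0.24 (mean −0.29, adjusted p = 0.0446). DSCC1 of an alternative clamp loader (−0.25, adjusted p = 0.0303) and WDHD1, which ties the polymerase to the helicase (−0.23, adjusted p = 0.0499), complete the 10 and were named after their values were seen. Of the 15 cyclins, kinases and inhibitors 0 were called by limma, and 3 had an unadjusted p under 0.05, beside 4260 of all 23485 genes. CCND2, a cyclin D of G1, was 1 of these 3 and had the lowest mean of the 15. It read −0.36 ± 0.40 (SD, n = 4), with −0.82 on array 1 and −0.0031 on array 4. The others of the 3 were the inhibitors CDKN1B and CDKN2C, which were higher, at 0.23 and 0.22 (limma adjusted p = 0.0563 and 0.0851). Both lay above 0 on all 4 arrays, and a second CDKN1B probe read 0.092.

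**Figure D4:**
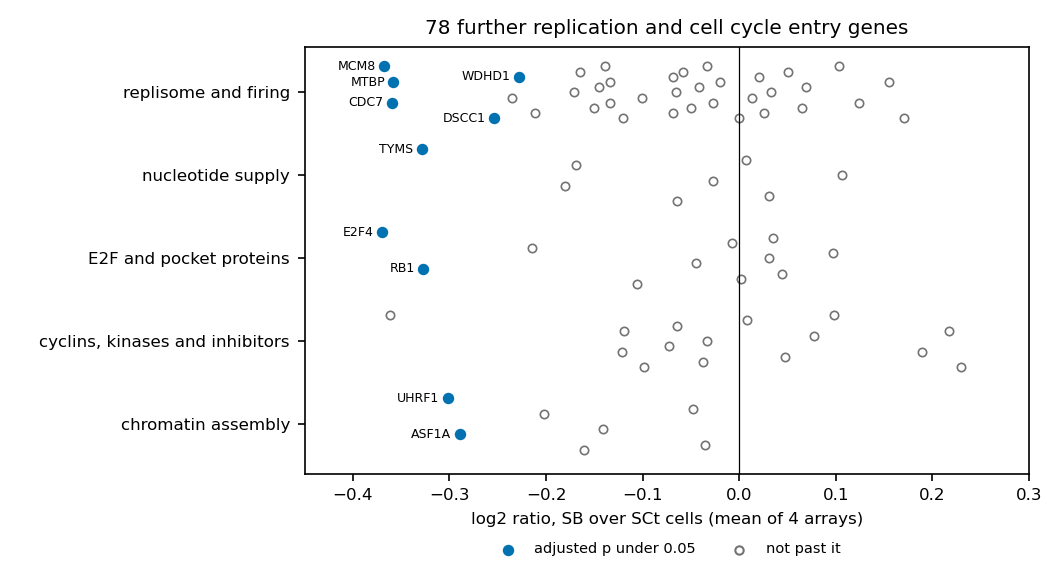
Mean log2 ratio of SB over SCt cells (horizontal axis) for the 78 further genes, in 5 groups on the vertical axis, with points offset vertically only to separate them. Filled blue points are the 10 genes with an adjusted p under 0.05 at their brightest probe. All 10 lie to the left of 0, between −0.37 and −0.23, and open points are the other 68.

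The calls in this list depended on single arrays. With array 3 left out only MCM8 and MTBP were called (0.665% of all genes), and with array 2 left out CDC7, E2F4, MCM8 and MTBP (1.41% of all genes). Without array 1 the calls of DSCC1, UHRF1 and WDHD1 were lost (2.09% of all genes called). Without array 4 (6.63% of all genes called) that of WDHD1 was lost, POLD3 and CCND2 were called lower, and CDKN1B, an inhibitor of CDK2, was called higher. After median centring 9 were called lower, 7 of them among the 10 above, and 13 were called higher, in a setting that called 11.2% of all genes lower and 20.8% higher. MCM8, MTBP, CDC7, E2F4 and RB1 were among those 7, with log2 ratios of −0.30, −0.26, −0.24, −0.20 and −0.26.

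Other markers of dividing cells were read as well. MKI67 read 0.093, CDK1 −0.18, CCNB1 −0.0054, BUB1 −0.020, AURKA −0.031 and PLK1 −0.00099, and 0 of the 6 were called, with CDK1 alone at an unadjusted p under 0.05. On arrays 1 to 4 CDK1 read −0.059, −0.14, −0.26 and −0.28 (limma adjusted p = 0.117), and 5.20% of all genes had a lower mean. As the samples are bulk RNA, fewer cells in S phase and less RNA per cell cannot be told apart where a gene read lower. With the dyes in 1 orientation, neither can be told apart from a dye effect.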

How the data were processed

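Dual-channel Agilent arrays were analysed, 4 in all, each SB RNA (red) over SCt RNA (green). Per the file headers, the authors deposited the Feature Extraction 10.5.1.1 output, with median spot intensity on a linear scale, not normalized, and the software's processed signals, background-subtracted and dye-normalized. The log10 ratio of these signals in the deposited files, converted to log2, was tested as an alternative (the software's ratios). The authors also deposited a series table in log2 units, whose values equalled the software's processed ratio within 0.001 for 98.7% to 99.1% of probes. In R 4.3.3 with limma 3.58.1, intensities were corrected by normexp (offset 50), 1377 control spots and 814 to 1168 outlier spots per array were left out, ratios were loess-normalized within arrays, and spots of a probe averaged. Of 34127 probes 28507 were kept as well above background in 1 channel on all arrays, with values on at least 2. lmFit and eBayes tested each mean against 0, with Benjamini-Hochberg adjustment over all kept probes and a threshold of 0.05. The number of arrays limits the precision.

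Probes were named through RefSeq accessions (24826 matched, 9301 not). On simulated arrays with 200 probes changed by 0.5 among 31833, all 200 were called in the right direction, and 6 of 206 calls were of unchanged probes. A change of 0.5 is larger than the mean of any replication gene or of any of the 78. Smaller changes, and a dye effect particular to a probe, were not simulated, so recovery at the sizes read here is not known. The gene set, the list of 78 genes and the alternatives were chosen with earlier results of these data known, so no test over a list was made. Named were all replication genes, those called on every array, and of the 78 at most the 8 largest calls in each direction. DSCC1, WDHD1, DBF4, TICRR, TOP1, CCND2, POLD3, CDKN1B and CDKN2C fall outside that rule and were named after their values were seen. Alternatives changed the background correction, normalization, ratio source, filter, outlier spots, variance model, test, probe choice and arrays.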

Additional observations from a re-analysis of the deposited data

Results flagged for a closer look

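For 4 of the 40 replication genes, 1 array stood apart from the other 3, the gap to the nearest array divided by the whole range being above Dixon's 95% critical value for 4 arrays. This share was 0.886 for CDT1, where array 3 was high, 0.964 for MCM4, where array 4 was high, 0.836 for CDC45, where array 4 was low, and 0.837 for GINS4, where array 4 was low. Chance alone flags about 5% of groups of 4, and 40 groups were looked at.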

How the results depend on the processing

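Under median centring in place of loess, 8939 probes were called (1055 with loess), 7 replication genes and 22 of the 78 further genes, and the median of the replication genes turned to 0.082. Over all genes 31.9% were then called. In the same setting MCM4 (0.25) and MCM7 (0.24) changed sign and were called higher. TK1 read 0.0095 there and was not called (limma adjusted p = 0.915), and in all 27 of the 40 genes had another sign. The series table called 698 probes, 0 replication genes (8 at an unadjusted p under 0.05) and 6 further genes. Over all genes it called 2.23%, with 4344 of 23681 at an unadjusted p under 0.05. The software's ratios called 0 replication genes (8 unadjusted) and 6 further genes, and normexp without an offset 0 (8 unadjusted) and 6. These settings called 2.44% and 2.65% of all genes, with 4178 and 4111 of 23485 at an unadjusted p under 0.05. With trend and robust options in eBayes 579 probes, 0 replication genes (9 unadjusted) and 5 further genes were called. Over all 23485 genes these options called 445 (4024 unadjusted). The methods' t-test called 0 probes (3936 unadjusted), 0 replication genes (5 unadjusted) and 0 further genes (21 unadjusted). Over all 23485 genes the t-test called 0 (3207 unadjusted). With 1 array left out, between 204 (without array 3) and 1991 (without array 4) probes were called, with 640 without array 1 and 427 without array 2. Replication genes called then ran from 0 to 2, further genes from 2 to 12, and the median of the replication genes from −0.071 to −0.027. Without array 1, 2 or 3 in turn, 0 replication genes were called by limma, with 10, 8 and 3 at an unadjusted p under 0.05. Over all genes 2.09%, 1.41% and 0.665% were called. At an unadjusted p under 0.05 were 4097 of 23785, 3265 of 23758 and 3014 of 23451 genes. Without array 4, TK1 and MCM2 were called, beside 6.63% of all genes.

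TK1 was called in 7 of 16 settings, its adjusted p running from 0.00734 to 0.915. Its adjusted p was just above the threshold with normexp without an offset (0.0506), trend and robust options (0.0502), the series table (0.0563) and the software's ratios (0.0511). The median of the replication genes stayed below 0 in all settings but median centring. Why the settings differ was not tested. Those with 1 array left out also rest on fewer arrays. The slide as a block was not run, since all arrays lie on 1 slide and 1 scan. Each value tested is already the ratio of both lines on 1 array, so the lines are paired within arrays and no replicate number is left to block on. All 49 probes of the replication genes were well above background in both channels.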
